A study of Mus musculus with 8 samples.

Results

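The genes of glycolysis, lactate and pyruvate use described here are 32 genes, found by their symbols among the 53507 gene rows of the count tables. By role they are 14 enzymes of the glycolytic chain from Hk1 to Pkm, 2 lactate dehydrogenases, 4 transporters of glucose or lactate, 3 Pfkfb regulators, 5 genes of the pyruvate dehydrogenase step and 4 genes of glycogen and the pentose phosphate route. All 32 passed the low-count filter and were among the 19936 genes tested, although Pdk4 and Pygm passed only because of their P12 libraries. Pdk4 had no count in any embryonic library, and Pygm had 49 and 6 counts at E13 and 7 and 4 at E15. The study sequenced RNA of tdTomato+ cells, labelled as progenitor cells of mouse brain, with 2 libraries in each of 4 groups. Embryos of embryonic days 13 and 15 (E13, E15), labelled wt, gave 2 of the groups, and pups of postnatal day 12 (P12) gave the others. The hypoxic pups breathed 10% O2 from P3 to P11, 8 days in all, while the normoxic pups stayed in normal air. Nursing mothers were swapped between the chambers at P6 and P9. Low oxygen thus ended before P12, and values called hypoxic below are from cells taken after it. Each library was built from 400 pg of total RNA with the NEBNext Ultra II kit. The driver and the allele behind tdTomato, and the P12 genotype, are not given in the sources used here. No label says whether the 2 libraries of a group came from separate animals, so p-values measure only the spread between these libraries, which may be technical. In the main test that spread is taken over all 8 libraries. The spread of the P12 libraries thus also enters the comparison of E13 with E15.

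Glycolysis splits glucose into pyruvate in the cytosol, and lactate dehydrogenase converts pyruvate and lactate into each other. Pyruvate dehydrogenase carries pyruvate into the mitochondrial citrate cycle, and pyruvate dehydrogenase kinases switch that enzyme off. In brain, astrocytes hold most of the glycogen and release lactate, and many glycolytic genes are known targets of the hypoxia-inducible factors, which bind the core letters ACGTG or GCGTG.

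Promoter windows of 250 bases before to 50 bases after the start are shown for 4 members that passed the test in a comparison below, Eno2, Ldhb, Pdk4 and Pygb, and for Pgk1, a textbook hypoxia target, so that the letters can be read beside the hypoxia values. They come from RefSeq on GRCm38.p6, which held 44 windows for 30 of the members. Capitals mark ACGTG or GCGTG, or their reverse complements CACGT and CACGC.
Eno2 (chr6:124769624-124769923, minus strand): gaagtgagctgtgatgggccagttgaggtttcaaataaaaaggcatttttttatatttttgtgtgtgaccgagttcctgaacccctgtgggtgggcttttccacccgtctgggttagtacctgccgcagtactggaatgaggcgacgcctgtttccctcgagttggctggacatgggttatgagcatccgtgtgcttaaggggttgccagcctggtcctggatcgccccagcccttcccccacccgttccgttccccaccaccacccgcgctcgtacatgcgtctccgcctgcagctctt
Ldhb (chr6:142507908-142508207, minus strand): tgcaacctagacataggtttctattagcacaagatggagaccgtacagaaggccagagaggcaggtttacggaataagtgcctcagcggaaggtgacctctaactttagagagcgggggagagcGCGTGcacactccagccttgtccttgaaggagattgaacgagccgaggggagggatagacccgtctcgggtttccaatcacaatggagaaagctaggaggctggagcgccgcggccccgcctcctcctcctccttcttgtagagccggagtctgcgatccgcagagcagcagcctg
Pdk4 (chr6:5496229-5496528, minus strand): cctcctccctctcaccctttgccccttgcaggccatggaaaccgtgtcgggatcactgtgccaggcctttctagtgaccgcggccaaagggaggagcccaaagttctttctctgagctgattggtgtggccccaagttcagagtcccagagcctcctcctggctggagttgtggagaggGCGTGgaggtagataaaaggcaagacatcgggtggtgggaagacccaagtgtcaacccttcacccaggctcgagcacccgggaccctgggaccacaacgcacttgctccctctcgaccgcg
Pygb (chr2:150786546-150786845, plus strand): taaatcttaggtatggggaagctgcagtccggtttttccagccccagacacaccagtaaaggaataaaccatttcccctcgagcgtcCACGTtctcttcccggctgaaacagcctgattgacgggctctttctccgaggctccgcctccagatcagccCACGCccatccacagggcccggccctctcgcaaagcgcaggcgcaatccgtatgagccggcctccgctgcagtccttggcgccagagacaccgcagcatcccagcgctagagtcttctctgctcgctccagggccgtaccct
Pgk1 (chrX:106186850-106187149, plus strand): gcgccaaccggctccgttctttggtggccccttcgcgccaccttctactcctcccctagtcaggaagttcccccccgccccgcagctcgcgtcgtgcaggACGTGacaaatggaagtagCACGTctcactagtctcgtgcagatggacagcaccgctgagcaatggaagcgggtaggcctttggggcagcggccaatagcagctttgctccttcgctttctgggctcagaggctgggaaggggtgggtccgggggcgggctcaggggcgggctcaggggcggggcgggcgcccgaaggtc
The Eno2 window held neither motif, the Ldhb and Pdk4 windows held GCGTG once each, the Pygb window held each motif once, and the Pgk1 window held ACGTG at 2 places. On either strand ACGTG was found in 23 of the 44 member windows (52.3%), against 19.6% of all 32851 RefSeq windows of that length and 24.3% of the 14865 windows of tested genes. GCGTG was in 25 of 44 member windows (56.8%), against 32.4% of all windows and 48.5% of those of tested genes. CACGTG, which contains ACGTG, was in 6 of 44 (13.6%), against 7.15% and 9.29%. A match describes these letters only and is not a measured binding site.

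Libraries held 36252027 to 47084796 counts in gene rows. P12 libraries detected fewer genes with at least 10 counts (11695 to 16468) than embryonic ones (17520 to 18318). Among them the hypoxic libraries detected fewer (12785 and 11695) than the normoxic ones (14129 and 16468). Replicates correlated less across genes at P12 (Pearson r 0.70 in hypoxia and 0.77 in normoxia) than at E13 (0.95) or E15 (0.95). All 12 progenitor markers listed were detected in each group, with summed levels of 1654 to 2223 CPM at P12 and 568 to 1361 in embryos. CPM is counts per mega-count of library size after scaling by trimmed mean of M values (TMM). The 12 did not all differ one way. Against embryos, libraries did not overlap for 6 higher and 2 lower in normoxia, and for 8 higher and 2 lower in hypoxia. Eomes and Neurog2 were the 2 lower ones in both. Astrocyte markers summed to 7171 to 9246 CPM at P12 against 61.9 to 94.0 in embryos, so the P12 cells labelled as progenitors also carried astrocyte RNA. Red-cell markers summed to 4782 to 16100 CPM at E13, 20.5 to 85.6 at E15 and at most 4.31 at P12. In bulk RNA, fewer cells of a type and less RNA per cell cannot be told apart.

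**Figure D1:**
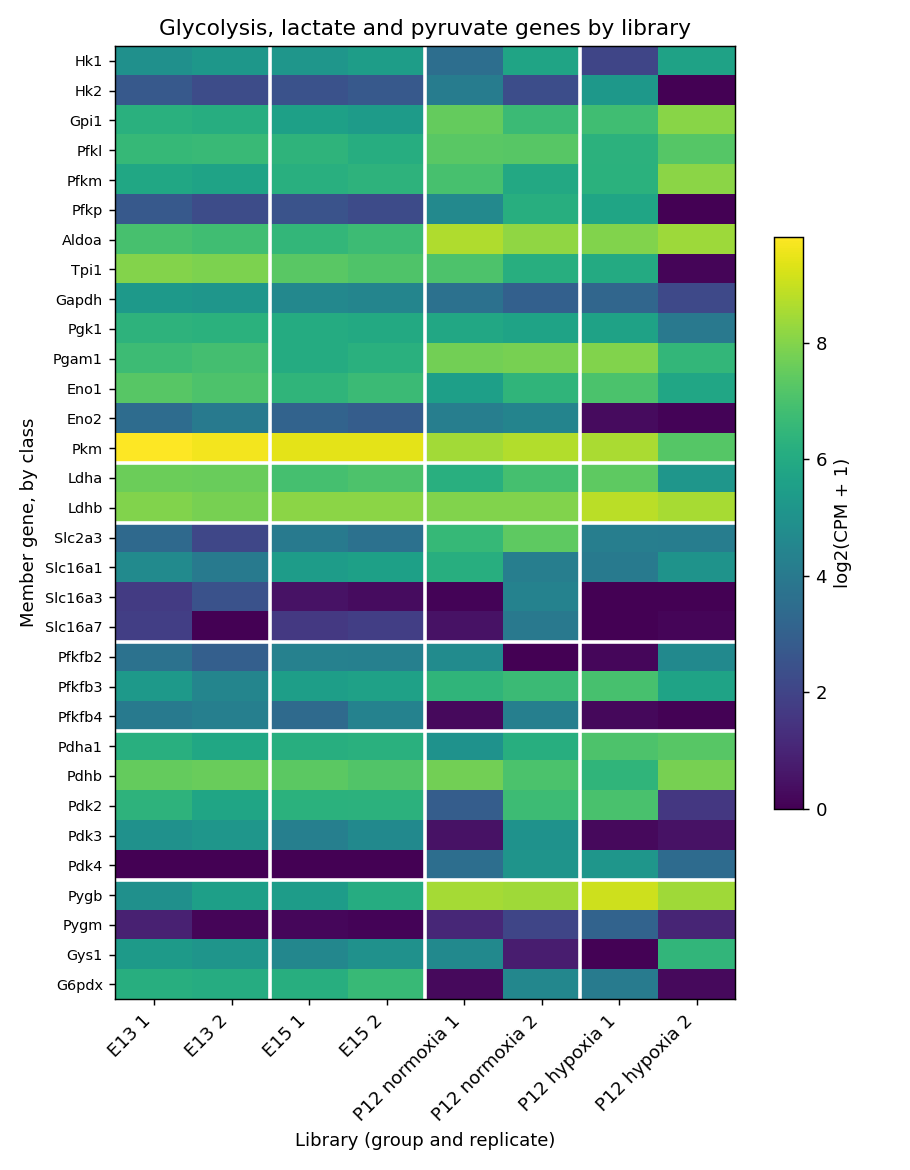
Levels of the 32 members as log2(CPM + 1), with 1 row per gene and 1 column per library, and white lines between roles and between groups. Columns of the same embryonic group look alike, while several genes, such as Hk2, Tpi1, Pdk2 and Gys1, differ widely between the 2 hypoxic or the 2 normoxic P12 libraries.

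The spread between replicates of the members differed by age. Among members reaching 10 CPM in at least 1 library of a group, 8 of 25 (32%) differed 10-fold or more between the 2 hypoxic libraries, against 35.0% of all such genes, and 8 of 31 (25.8%) did so in normoxia, against 17.5%. In E13 and in E15 none of 25 did, against 0.0620% and 0.0105% of all genes. Pfkfb2, Pdk2, Gys1 and G6pdx stood 10-fold apart in both P12 groups, Hk1, Hk2, Pfkp and Tpi1 in hypoxia, and Slc16a3, Slc16a7, Pfkfb4 and Pdk3 in normoxia. For these 12 genes, a value of the P12 group in which they stood 10-fold apart is therefore a mean of 2 very unlike libraries.

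Per kilobase of merged exons, Ldhb, the heart-type lactate dehydrogenase subunit, had the highest mean level of the members at P12, at 259 CPM per kb in hypoxia and 159 in normoxia. By the genes' own rows, at E13 it was second with 151 behind Pkm, pyruvate kinase, with 172, and at E15 Ldhb stood at 175 and Pkm at 137. The Ldhb and Pkm ranges per library did not overlap at E13 (143 to 158 against 162 to 181) or at E15 (174 to 177 against 136 to 138). The order of the top genes depended on near-identical copies and on the length used. With counts of copies added, Gapdh led at E13 with 239 CPM per kb, before Pkm with 214 and Ldhb with 195, while Ldhb led at E15 (225) and at P12 (329 in hypoxia and 198 in normoxia). Without copies, and by the longest coding transcript, Pkm led at E13 and E15 with 353 and 281 CPM per kb, and Aldoa led in normoxic P12 with 223 against 191 for Ldhb.

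The first comparison asks how rearing in low oxygen changed these genes at P12. Of the 32 members, 0 rose and 1 fell by edgeR's quasi-likelihood test at a Benjamini-Hochberg adjusted p under 0.05, when 3.02% of all genes passed, 0.196% higher and 2.82% lower. The 1 that fell was Eno2, the enolase isozyme typical of neurons. The median log2 fold change of the members was -0.25, beside 0 for all genes, with 12 values above 0 and 20 below. The libraries did not overlap for 2 members that were higher in hypoxia (13.1% of all genes) and 8 that were lower (20.1%).

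Eno2 was near absent in hypoxia. Its level was 0.24 and 0.074 CPM in hypoxia, which is 7 and 2 counts, and 17.3 and 20.8 CPM in normoxia. Both hypoxic libraries also lay far below the embryonic ones, at 10.2 and 15.1 CPM at E13 and 7.66 and 6.53 at E15. Eno2 differed by a log2 fold change of -6.91 (SE 1.04, adjusted p = 0.0337 by edgeR). The 12 neuron markers summed to 359 to 688 CPM in hypoxia and 932 to 1050 in normoxia, but did not all differ one way. Libraries did not overlap for 9 of them that were lower in hypoxia, among them Snap25 (0.6 and 0.3 against 85.8 and 87.6 CPM), and for 1 that was higher, Map2 (177 and 310 against 80.3 and 151), while Tubb3 and Dcx overlapped. Nefl and Nefm were at 0 in hypoxia, and each was near 0 in 1 normoxic library as well. Oligodendrocyte lineage markers summed to 1936 to 3441 against 607 to 838, and the part of either list in the Eno2 result was not tested. Hypoxic libraries also detected fewer genes than normoxic ones (given above), and the part of this in the Eno2 result was not tested either. The Eno2 call held in 10 of 18 other analyses. It was lost without any 1 of the 4 embryonic libraries (adjusted p 0.170 to 0.174 in edgeR) at nearly the same size, fits in which 0 of all genes passed. It was also lost with no low-count filter (0.0550), in a fit of the 4 P12 libraries alone (0.341) and in limma-voom (0.386).

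Its partner Eno1, the enolase of most cell types, stood at 129 and 55.7 CPM in hypoxia against 45.5 and 85.9 in normoxia. The groups overlapped, and the log2 difference was 0.50 (SE 0.53, adjusted p = 0.746 by edgeR). Per kilobase, counting these 2 gene rows only, Eno2 made up 0.21% and 0.15% under hypoxia, 30.3% and 21.7% under normoxia and 6.78% to 11.5% in embryos. With counts of the near-identical copies of Eno1 added (described at the end), the Eno2 share was 0.069% and 0.035% under hypoxia, 12.7% and 8.13% under normoxia and 2.15% to 3.51% in embryos. With muscle-type Eno3 counted too, and no copies, the normoxic share of Eno2 was 18.8% and 13.8%.

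Among the members nearest to the threshold after Eno2 were a glucose transporter, a lactate dehydrogenase and a pyruvate dehydrogenase subunit. Slc2a3, the neuronal glucose transporter GLUT3, measured 17.2 and 16.7 CPM in hypoxia against 95.5 and 166 in normoxia. Hypoxic libraries were both below normoxic ones, but the log2 difference of -2.95 (SE 0.70) did not pass (adjusted p = 0.108 by edgeR). Ldhb measured 445 and 369 CPM in hypoxia against 248 and 250 in normoxia, again without overlap, at a log2 difference of 0.71 (SE 0.22, adjusted p = 0.188 by edgeR). Pdha1, the catalytic E1 alpha subunit of pyruvate dehydrogenase, measured 133 and 153 CPM against 31.1 and 70.5. Hypoxic values were again all above normoxic ones, with a log2 difference of 1.49 (SE 0.49, adjusted p = 0.211 by edgeR). All 3 passed in DESeq2 and in no other analysis of the 18 tried. About as near as Pdha1 were Slc16a3 (adjusted p = 0.2088), Pfkfb4 (0.2225) and Pdk3 (0.2229, edgeR), each with a lower mean in hypoxia. In the first normoxic library these genes were near 0 as well. They passed in DESeq2 too, which called 2 members higher and 5 lower.

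Other members known as hypoxia targets did not pass the test. Low oxygen had ended at P11, before these P12 cells were taken, so their values do not show levels during it. Ldha, the muscle-type lactate dehydrogenase subunit and a known hypoxia target, stood at 165 and 35.0 CPM in hypoxia against 71.7 and 122 in normoxia. The hypoxic pair enclosed the normoxic pair, and the log2 difference was 0.05 (SE 0.71). Pgk1, phosphoglycerate kinase, stood at 49.6 and 14.6 CPM against 58.0 and 51.1, and Pfkfb3, which makes the phosphofructokinase activator fructose-2,6-bisphosphate, at 125 and 50.3 against 84.1 and 103. Hk2, the inducible hexokinase, was 36.4 CPM in 1 hypoxic library and 0 in the other, against 16.2 and 4.04 in normoxia. Slc16a3, the lactate exporter MCT4, had no count in either hypoxic library and 0.064 and 19.3 CPM in normoxia. Of the 19 members with ACGTG in a promoter window, 0 passed, beside 3.02% of all genes (0.196% higher), and 6 had a log2 difference above 0. Their median was -0.23, beside 0.04 for the 11 members with windows that lacked it. For GCGTG, 0 of 20 passed and 8 lay above 0, with a median of -0.11, beside -0.39 for members without it. For CACGTG the median was -0.004 in 6 members, beside -0.32 for those without it. The order was thus not the same for each motif, and none of these differences was tested. A count of 0 among so few members is near the share of all genes and is no result about the motifs.

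Leaving out 1 library moved the count of members that fell with hypoxia. It was 7 without the first hypoxic library, when Hk2, Pfkp, Tpi1, Pgk1, Pgam1 and Pkm joined Eno2, 4 without the first normoxic library, when Slc16a3, Pfkfb4 and Pdk3 joined, and 0 without any 1 embryonic library. In each of those cases 0 members rose. Calls over all genes moved too: 10.4% passed as lower without the first hypoxic library, 3.80% without the first normoxic library and 0 without any 1 embryonic library.

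**Figure D2:**
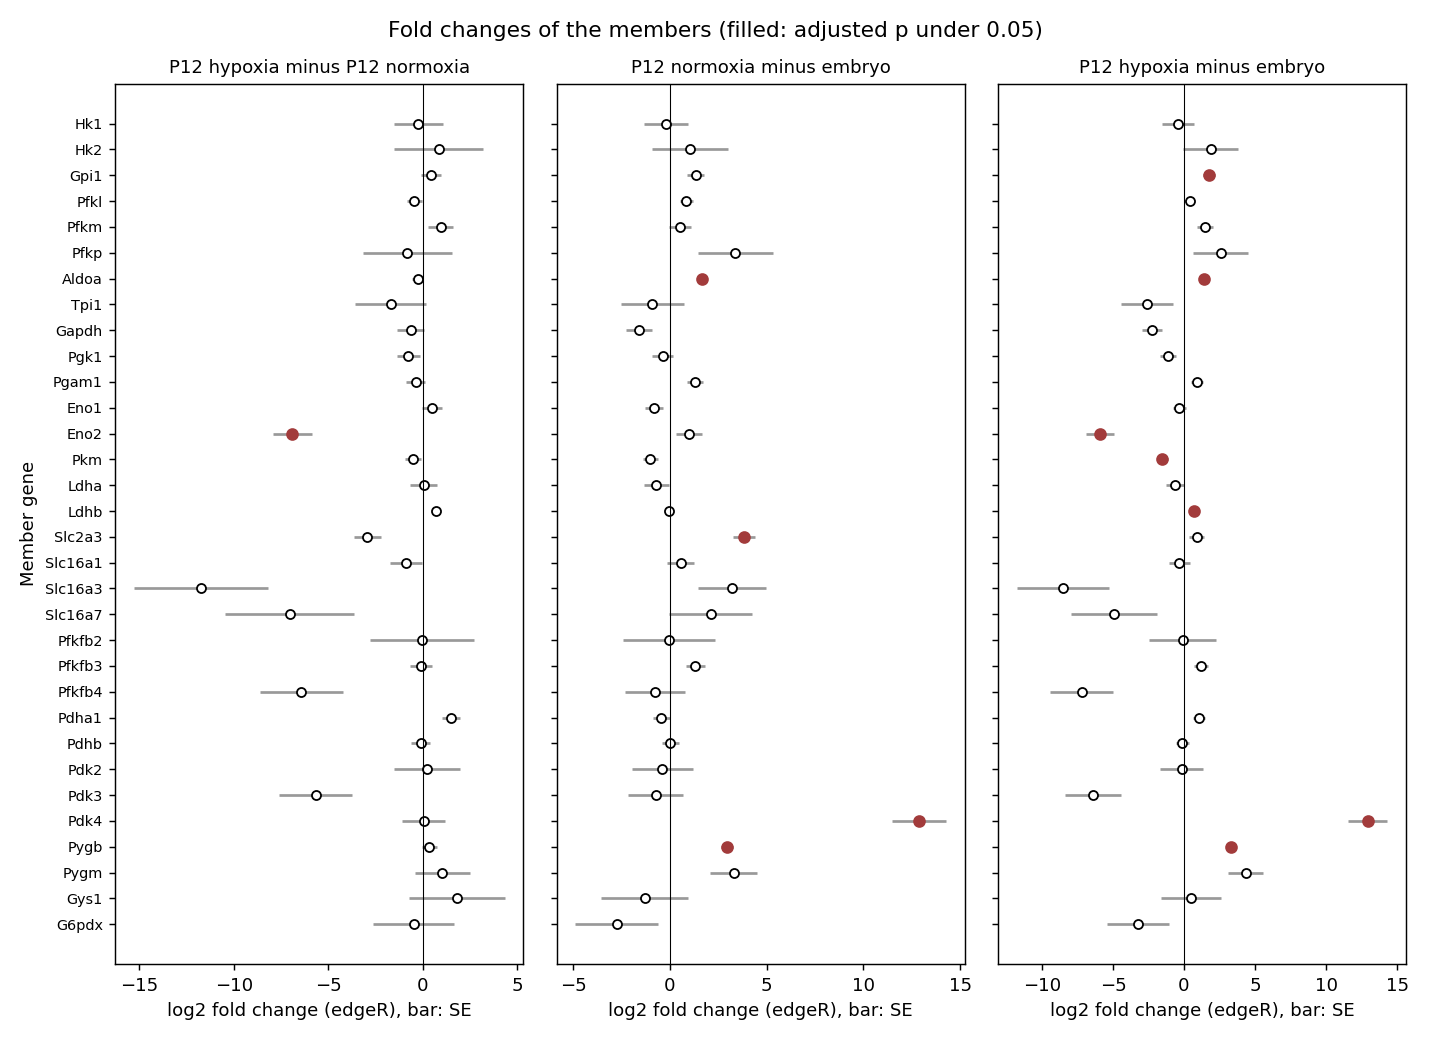
Log2 fold changes of the 32 members in the 3 comparisons that involve P12 cells, with bars of 1 SE on either side (edgeR) and filled points at an adjusted p under 0.05. The hypoxia panel holds 1 filled point, Eno2, and the panels against embryos hold 4 and 7; the Pdk4 and Slc16a3 values rest on groups with no counts and are no measured size.

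Of 81 other genes of these pathways, 68 were tested in the same hypoxia comparison, in which 3.02% of all genes passed. Among these 68 genes, 0 were higher and 4 lower (5.88%). They were Rpe of the pentose phosphate route (log2 difference -7.10, SE 0.74, adjusted p = 0.0217), Phkg2, a phosphorylase kinase subunit (-7.44, SE 0.99, adjusted p = 0.0262), Eno3, muscle-type enolase (-6.82, SE 1.16, adjusted p = 0.0437), and Minpp1, an inositol phosphate phosphatase (-3.88, SE 0.69, adjusted p = 0.0476), all by edgeR. Eno3 thus stood beside Eno2, at 0.067 and 0.22 CPM in hypoxia against 12.8 and 20.5 in normoxia. The genes listed for lactate and glucose transport gave 0 of 12, and those for pyruvate entry 0 of 11.

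Between E13 and E15 no member passed, and neither did any of the 19936 genes tested in edgeR (0.0%). Unadjusted edgeR p-values were under 0.05 for 690 of all genes and for 0 members. The main fit also uses the P12 libraries, so its p-values do not measure the embryonic spread alone. In edgeR fitted to the E13 and E15 libraries only, 90 genes were called higher and 139 lower, with 0 members among them. DESeq2 called 132 genes higher and 242 lower, with 0 members among them. Limma-voom called 363 higher and 572 lower, and among them 2 members, Ldha and Pkm, both lower at E15 (adjusted p 0.0490 and 0.0370). The members' median log2 fold change was -0.21, beside 0.00 for all genes, with 11 of the 14 glycolytic enzymes below 0. Libraries did not overlap for 7 members higher at E15 (23.6% of all genes) and 15 lower (25.8%). Pkm measured 904 and 812 CPM at E13 and 690 and 679 at E15, a log2 difference of -0.33 (SE 0.42). Ldha measured 193 and 192 CPM against 121 and 133, a log2 difference of -0.60 (SE 0.71), and neither pair overlapped. Tpi1, triosephosphate isomerase, gave 255 and 234 CPM at E13 against 160 and 137, and Gpi1, which turns glucose-6-phosphate into fructose-6-phosphate, 74.9 and 67.7 against 46.8 and 41.0. Red-cell marker sums differed between these groups (given above), and their part in the values was not tested.

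Normoxic P12 cells were set against the mean of the 2 embryonic ages. Here 4 members rose, 3 of them besides Pdk4, which has no embryonic counts, and 0 fell, where 17.8% of all genes passed, 12.1% higher and 5.68% lower. The 4 were Pygb, Aldoa, Slc2a3 and Pdk4, so 1 each came from glycogen breakdown, the glycolytic chain, glucose uptake and the control of pyruvate entry. The median of the members was 0.27, beside -0.04 for all genes. Libraries did not overlap for 11 members higher at P12 (27.3% of all genes) and 5 lower (32.1%).

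Hypoxic P12 cells against the same embryonic libraries gave 5 members higher, Pygb, Pdk4, Aldoa, Gpi1 and Ldhb, and 2 lower, Eno2 and Pkm. In that comparison 26.1% of all genes passed, 13.2% higher and 12.9% lower. The members' median was -0.10, beside -0.43 for all genes, and the libraries did not overlap for 9 members higher (21.3% of all genes) and 9 lower (36.3%). Both comparisons use the same 4 embryonic libraries, so their values are given side by side and not as separate evidence. A call in only 1 of the 2 does not show that hypoxia and normoxia differ: in the direct test Gpi1 (adjusted p = 0.785), Pkm (0.628), Ldhb (0.188) and Slc2a3 (0.108, edgeR) did not pass, and Eno2 did. With genes that had no count on 1 side placed at a floor of 3 counts per library, the medians were the same to 2 decimals in both.

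Of the glycogen genes among the members, Pygb alone passed. Pygb, brain glycogen phosphorylase, measured 29.6 and 45.6 CPM at E13, 41.5 and 66.8 at E15, 357 and 339 in normoxic P12 and 536 and 345 in hypoxic P12. All 4 P12 libraries lay above the embryonic ones. The log2 fold change was 2.95 (SE 0.32, adjusted p = 0.0033) for normoxia and 3.29 (SE 0.33, adjusted p = 0.0019) for hypoxia in edgeR, and both passed in each of the 18 other analyses run. Pygm, the muscle isozyme, was low throughout, at 0.064 to 0.88 CPM in embryos and 1.04 to 7.74 at P12, with log2 values of 3.30 (adjusted p = 0.118) and 4.33 (adjusted p = 0.0506, edgeR). It entered the test only through the P12 libraries, where it is higher, so these p-values add nothing to its levels. The liver isozyme Pygl, no member, read 0.10 and 70.8 CPM in hypoxia, 25.2 and 53.1 in normoxia and 0.12 to 0.80 in embryos. Of the 3 phosphorylases per kilobase Pygb made up 97.9% and 87.1% under hypoxia and 94.9% and 89.0% under normoxia. Gys1, glycogen synthase, held no such difference, with 0.034 and 87.9 CPM in hypoxia, 24.6 and 0.72 in normoxia and 22.5 to 39.3 in embryos.

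Pdk4, which blocks pyruvate dehydrogenase when fat is burned, had 0 counts in all 4 embryonic libraries. It measured 10.7 and 32.7 CPM in normoxic and 34.6 and 9.87 in hypoxic P12. Against the highest floor of 3 counts in an embryonic library, Pdk4 was at least 199-fold and 609-fold higher in the 2 normoxic libraries and at least 646-fold and 184-fold higher in the 2 hypoxic ones. It entered the test only through the libraries where it is high, so its calls (adjusted p = 0.0117 in normoxia and 0.0089 in hypoxia, edgeR) add nothing to these values. The normoxic call was lost without any 1 embryonic library (adjusted p 0.0533 to 0.0541). Pdk2, the widely expressed kinase, stood at 126 and 2.03 CPM in hypoxia, 6.51 and 104 in normoxia and 53.5 to 80.6 in embryos. Pdk3 read 0.20 and 0.41 CPM in hypoxia, 0.38 and 31.0 in normoxia and 18.1 to 34.7 in embryos, a log2 value of -6.41 for hypoxia that did not pass (adjusted p = 0.0600, edgeR). Pdk1, a kinase that is no member, read 38.0 and 0.37 CPM in hypoxia, 5.37 and 16.1 in normoxia and 13.3 to 21.2 in embryos. Of the 4 kinases per kilobase Pdk4 took 18.1% and 76.8% under hypoxia, beside 51.3% and 16.5% under normoxia, so the main kinase differed between replicates. Of the enzyme itself, Pdhb, the beta subunit, stood at 85.8 and 225 CPM in hypoxia, 210 and 129 in normoxia and 143 to 189 in embryos.

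**Figure D3:**
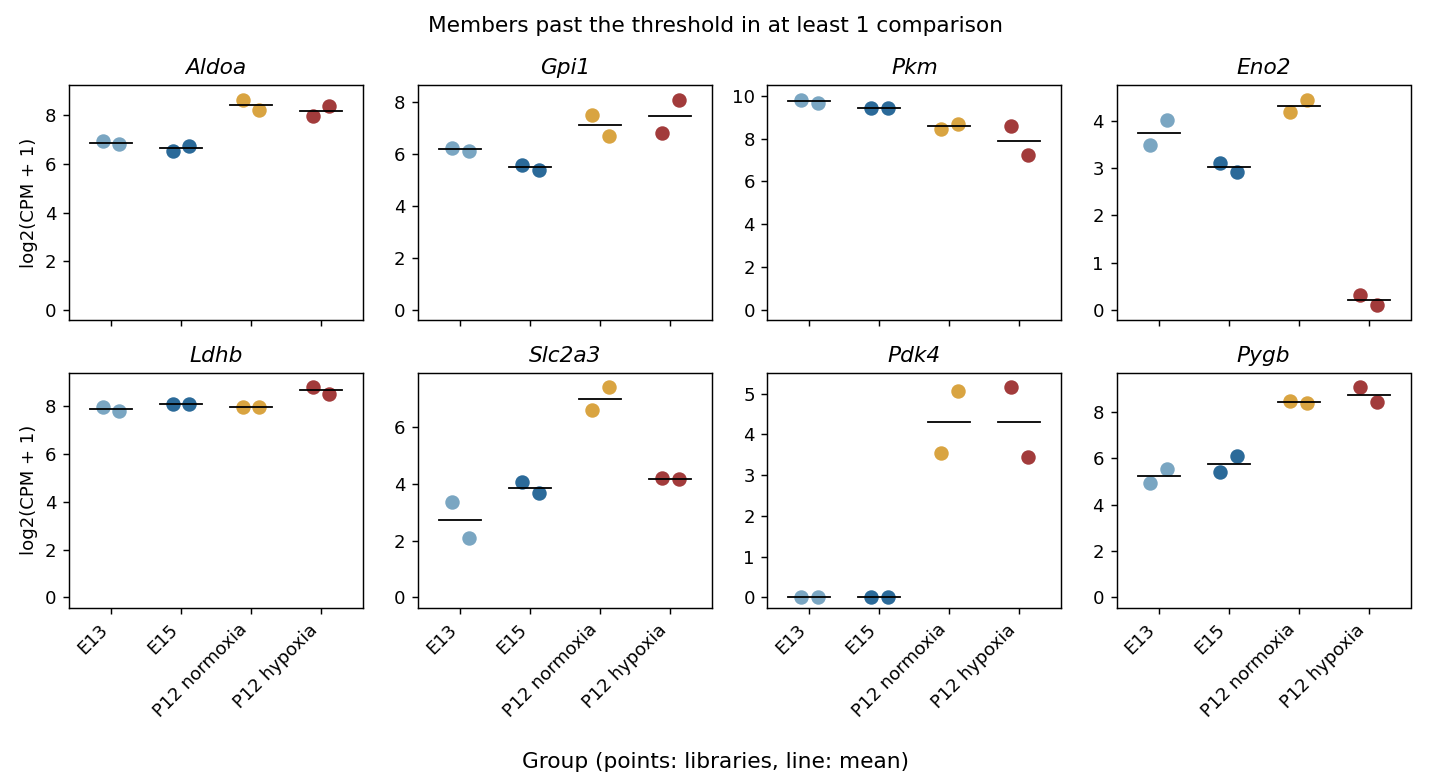
Levels of the 8 members that passed in at least 1 comparison, as log2(CPM + 1) on axes that differ between genes, with points for the 2 libraries of a group and a line for their mean. Pygb, Aldoa and Pdk4 are higher in all 4 P12 libraries than in any embryonic one, while Eno2 is near 0 in both hypoxic libraries.

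In the GENCODE annotation of GRCm38 the 8 members that passed in any comparison are protein-coding genes at chr7:126795234-126800751 (Aldoa), chr7:34201330-34230336 (Gpi1), chr9:59656368-59679375 (Pkm), chr2:150786735-150831758 (Pygb), chr6:124760053-124769673 (Eno2), chr6:142490249-142507957 (Ldhb), chr6:122727809-122801640 (Slc2a3) and chr6:5483351-5496309 (Pdk4). Pygb and Pkm lie on the plus strand and the other 6 on the minus strand.

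In the glycolytic chain Aldoa and Gpi1 were higher at P12. Aldoa, the general aldolase, measured 123 and 111 CPM at E13, 90.7 and 106 at E15, 398 and 293 in normoxia and 246 and 330 in hypoxia, with no overlap. Its log2 fold change was 1.69 (SE 0.24, adjusted p = 0.0082) for normoxia and 1.42 (SE 0.24, adjusted p = 0.0111) for hypoxia in edgeR. Aldoa lost both calls without any 1 embryonic library (adjusted p 0.0578 to 0.0755), and the normoxic one also without the first normoxic library (0.0707). Gpi1 measured 180 and 104 CPM in normoxia and 111 and 271 in hypoxia, above all embryonic values of 41.0 to 74.9. It passed for hypoxia, at 1.77 (SE 0.43, adjusted p = 0.0317), but not for normoxia, at 1.34 (SE 0.43, adjusted p = 0.0834, edgeR). The Gpi1 call was lost without the second hypoxic library (0.97, adjusted p = 0.140) or any 1 embryonic library (0.128 to 0.138).

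The later steps of the chain gave lower levels or no call. Pkm measured 352 and 408 CPM in normoxia and 382 and 150 in hypoxia, below all embryonic values of 679 to 904. It fell in hypoxia, with a log2 value of -1.53 (SE 0.40, adjusted p = 0.0382), and did not pass in normoxia, at -1.01 (SE 0.38, adjusted p = 0.127, edgeR). The hypoxic Pkm call was lost without the second normoxic library (0.0603) and without any 1 embryonic library (0.114 to 0.126). Tpi1 stood at 62.7 and 0.11 CPM in hypoxia, 134 and 70.5 in normoxia and 137 to 255 in embryos, and Pgk1 at 61.5 to 80.9 in embryos, all above the P12 values. Pgam1, phosphoglycerate mutase, went the other way in level, at 213 and 225 CPM in normoxia and 247 and 89.2 in hypoxia against 65.7 to 119 in embryos, but did not pass (adjusted p = 0.0789 and 0.148, edgeR). Eno2 stood above embryos in normoxia, at a log2 value of 1.01 (adjusted p = 0.339), and fell below them in hypoxia, at -5.91 (SE 0.97, adjusted p = 0.0099, edgeR), a call lost without any 1 embryonic library (0.0546 to 0.0599).

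At the lactate step Ldhb rose in hypoxic P12 cells, from 225 to 277 CPM in the 4 embryonic libraries to 445 and 369 with TMM scaling, a direction that turned with plain library totals (-0.24). The log2 fold change was 0.67 (SE 0.18, adjusted p = 0.0424, edgeR). In normoxia Ldhb stood at 248 and 250 CPM, inside the embryonic range, at -0.04 (SE 0.19). The Ldhb call was lost without the first hypoxic library (0.54, adjusted p = 0.0640) or any 1 embryonic library (0.158 to 0.190). Ldha ranged over 35.0 to 165 CPM at P12 and 121 to 193 in embryos, with log2 values of -0.69 and -0.64 that did not pass. Ldhb made up 85.0% and 95.7% of the 2 subunits per kilobase under hypoxia, 88.0% and 81.2% under normoxia, 73.0% and 71.2% at E13 and 82.7% and 81.5% at E15.

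These values depend on how libraries were put on 1 scale. TMM factors were 0.64 to 0.85 at P12 and 1.32 to 1.38 in embryos. With plain library totals the median of all genes moved from -0.04 to -0.85 for normoxia minus embryo and from -0.43 to -1.32 for hypoxia minus embryo. Under those totals the hypoxic value of Ldhb turned to -0.24 (adjusted p = 0.476), and Aldoa (0.48, adjusted p = 0.123) and Gpi1 (0.78, adjusted p = 0.157) no longer passed. A change of scale moves all genes and their median by nearly the same amount, so distances from the median hardly change. Ldhb lay 1.10 above the median with TMM and 1.08 with totals, Aldoa 1.85 and 1.80, and Gpi1 2.20 and 2.10. These distances cannot decide which scale is right and add nothing to the calls. Upper-quartile scaling also ended the hypoxic calls of Ldhb (adjusted p = 0.215) and Gpi1 (0.0531), as did the lack of a low-count filter (0.128 and 0.0590). In limma-voom Ldhb (0.0664), Gpi1 (0.0620), Pkm (0.108) and Eno2 (0.0773) did not pass against embryos.

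Among transporters, Slc2a3 rose in normoxic P12 cells. Its embryonic levels were 9.14 and 3.23 CPM at E13 and 15.7 and 11.7 at E15, against 95.5 and 166 in normoxia. The log2 fold change was 3.83 (SE 0.56, adjusted p = 0.0088), while hypoxic cells gave 0.88 (SE 0.55, adjusted p = 0.273, edgeR). The normoxic Slc2a3 call was lost without the second E13 (0.0524), first E15 (0.0717) or second E15 library (0.0789). Slc16a1, the monocarboxylate transporter MCT1, stood at 15.04 and 32.3 CPM in hypoxia, 71.1 and 17.4 in normoxia and 15.04 to 46.4 in embryos, all overlapping. Slc16a3 measured 2.27 and 4.54 CPM at E13 and 0.41 and 0.24 at E15. Against the highest floor of 3 counts in a hypoxic library, hypoxic cells were at least 20.5-fold and 41.0-fold below the E13 libraries and at least 3.65-fold and 2.17-fold below the E15 ones, without passing (adjusted p = 0.116, edgeR). Slc16a7, MCT2, reached 14.8 CPM in 1 normoxic library and at most 2.58 CPM in each of the other 7.

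The Pfkfb regulators and the upper kinases showed no call. Pfkfb3 was higher in all P12 libraries (50.3 to 125 CPM) than in embryos (21.4 to 48.6), with log2 values of 1.32 (adjusted p = 0.116) and 1.22 (adjusted p = 0.113, edgeR). Pfkfb2 read 0.13 and 24.6 CPM in hypoxia, 25.7 and 0 in normoxia and 6.95 to 19.0 in embryos. Pfkfb4 read 0.17 and 0.037 CPM in hypoxia, 0.19 and 18.1 in normoxia and 9.65 to 19.6 in embryos, at -7.20 for hypoxia (adjusted p = 0.0616, edgeR). In 3 of the 4 P12 libraries Pfkfb4 was thus near 0. Hk1, the constitutive hexokinase, read 3.20 and 50 CPM in hypoxia, 10.8 and 51.8 in normoxia and 29.6 to 43.4 in embryos. Its share of Hk1 and Hk2 per kilobase was 5.79% and 100% under hypoxia, 31.7% and 90.0% under normoxia and 78.3% to 86.5% in embryos, so no P12 group had 1 hexokinase in both libraries as the main one. Of the phosphofructokinases, Pfkl stood at 77.5 and 148 CPM in hypoxia, 156 and 155 in normoxia and 69.4 to 100.2 in embryos. Pfkm read 77.3 and 277 CPM, 124 and 60.6, and 50.6 to 80.8 in the same order, and Pfkp, the platelet type, 53.4 and 0, 23.5 and 70.6, and 3.76 to 5.67. G6pdx, which opens the pentose phosphate route, read 15.9 and 0.18 CPM in hypoxia, 0.19 and 22.4 in normoxia and 66.3 to 97.3 in embryos, and did not pass (adjusted p = 0.312 and 0.411, edgeR).

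**Figure D4:**
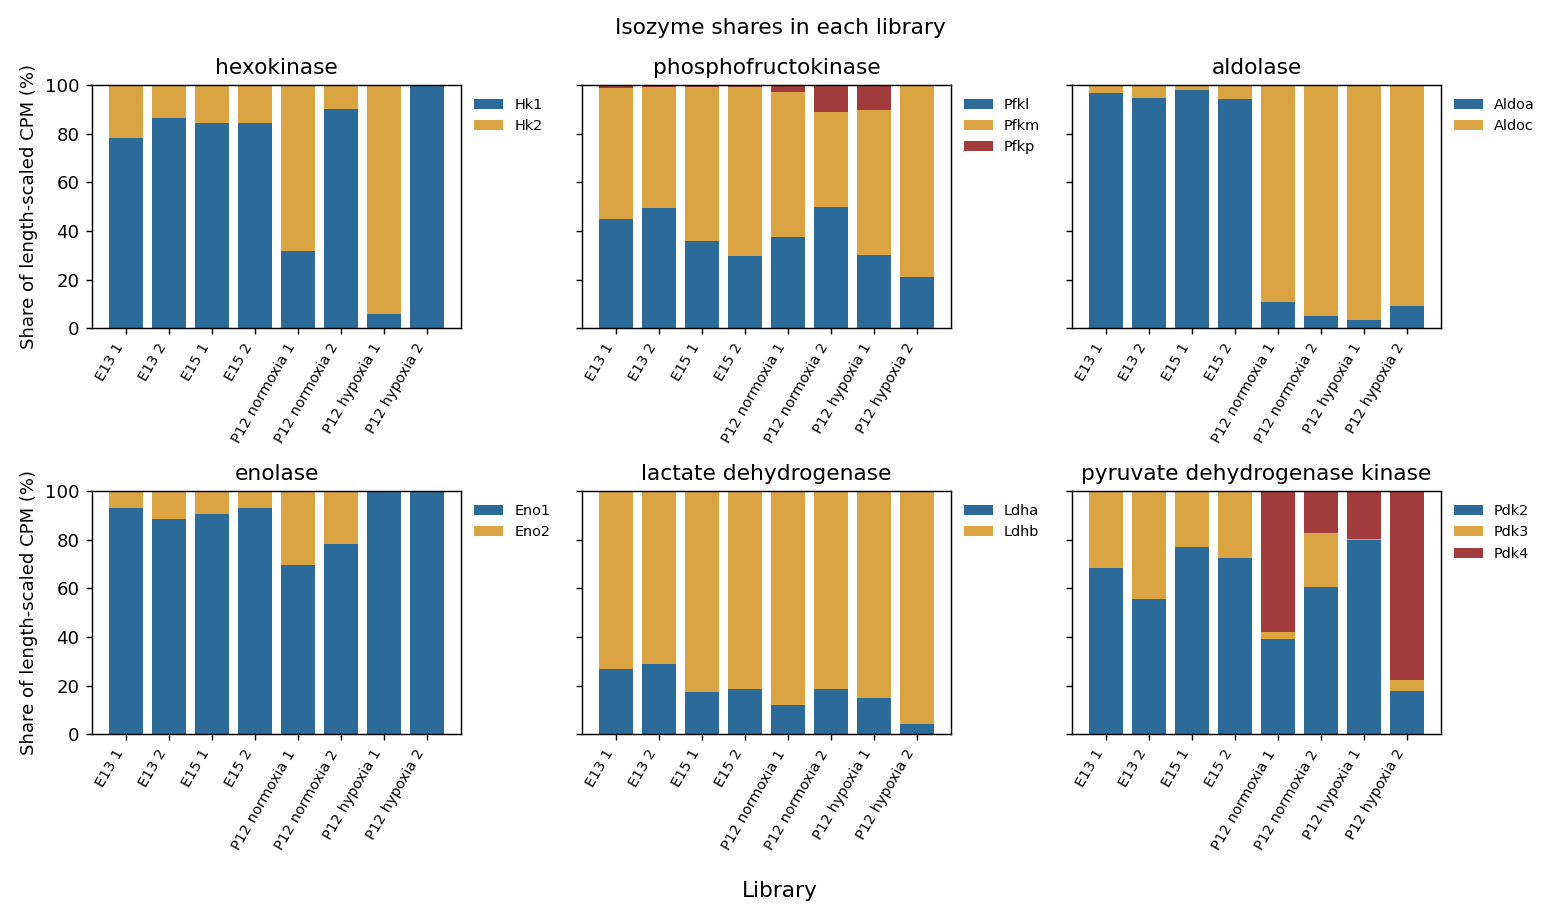
Share of each isozyme in its family, in percent of CPM per kilobase of merged exons, in each of the 8 libraries; Aldoc is no member and is drawn as the partner of Aldoa, Eno3 and Pdk1 are not drawn, and copies are not added. Aldoc makes up 89.1% to 96.5% of the aldolases at P12 and 2.18% to 5.87% in embryos, and the Hk1 and Pdk4 shares differ between P12 replicates.

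The aldolase family turned over, although its partner gene is not among the 32. Aldoc, the aldolase of astrocytes, measured 5878 and 2929 CPM in hypoxia, 2872 and 4711 in normoxia and 1.78 to 5.83 in embryos. It rose by a log2 value of 9.82 (SE 0.66, adjusted p = 0.000611) in normoxia and 10.04 (SE 0.67, adjusted p = 0.000571) in hypoxia, by edgeR. Aldoa, itself higher at P12, therefore made up 3.55% to 10.9% of the 2 aldolases there and 94.1% to 97.8% in embryos. Markers of several cell types differed between P12 and embryos beside all these results. All 10 astrocyte markers were higher in each P12 library than in any embryonic one. Of them Aldh1l1 was at 0 at E13, Aqp4, Gfap and Aldh1l1 were at 0 at E15, and none was at 0 at P12. Oligodendrocyte lineage markers summed to 607 to 3441 CPM at P12 against 23.8 to 49.7 in embryos, and neuron markers to 359 to 1050 against 2732 to 3180. Endothelial and mural markers summed to 1022 to 2523 against 5.63 to 12.6. The P12 sum was nearly all the mural gene Rgs5 (1021 to 2501 CPM). Of the other mural genes listed, Kcnj8 was at 0 in every P12 library. Pdgfrb ranged from 0.63 to 34.5 CPM across the hypoxic libraries and from 21.9 to 72.0 across the normoxic ones. The endothelial genes Pecam1, Cldn5 and Cdh5 were also at 0 at P12. This list sum thus rests on Rgs5 and does not by itself show mural cells. What part the cell types named here had in the results was not tested.

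Of the 68 other pathway genes tested, 10 were higher and 3 lower in normoxic P12 cells than in embryos (19.1%, against 17.8% of all genes). In hypoxic ones 11 were higher and 13 lower (35.3%, against 26.1% of all genes). The 4 of smallest p were the same in both: Gsk3b, a kinase that inhibits glycogen synthase, Aldoc, Pdp2, a phosphatase that reactivates pyruvate dehydrogenase, and Ugp2, which makes the glycogen precursor UDP-glucose. Gsk3b rose by 4.51 (SE 0.28) and 4.78 (SE 0.28), Pdp2 by 5.54 (SE 0.42) and 5.88 (SE 0.42), and Ugp2 by 3.79 (SE 0.31) and 3.83 (SE 0.31) on the log2 scale, with adjusted p between 0.000422 and 0.00113 by edgeR. Pdp2 read 659 to 1805 CPM at P12 against 20.7 to 28.3 in embryos, so a phosphatase and the kinase Pdk4, which oppose each other, were both higher at P12. By list, the genes for glycogen gave 5 higher and 1 lower of 21 in normoxia and 6 higher and 2 lower in hypoxia, those for pyruvate entry 2 and 0, and 2 and 1, of 11, and those for the pentose phosphate route 0 and 0, and 0 and 2, of 10. The remaining genes of glycolysis gave 1 and 1, and 1 and 4, of 14, and those of transport 2 and 1, and 2 and 4, of 12.

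Several members share sequence with near-identical copies, mostly processed pseudogenes, to which reads may have been split. Copies, taken as other genes matching at least 100 bases and 10% of the member's transcript at 95% identity or more, were found for 10 members. Gapdh, glyceraldehyde-3-phosphate dehydrogenase, had 79 copies in the files, which held 96.5% of the joint counts, and for Eno1 the copies held 70.6% and for Pgk1 54.8%. The other 7, Pdhb, Ldhb, Ldha, Pkm, Pgam1, Gpi1 and Tpi1, had 4.76% to 25.5% of counts in copies. Gapdh alone read 3.48 to 11.6 CPM at P12 and 21.02 to 38.2 in embryos, which makes its own row an uncertain measure. With copies added it read 334 and 219 CPM in hypoxia, 320 and 184 in normoxia, 1039 and 937 at E13 and 634 and 609 at E15. This sum was lower at P12 in both conditions, with log2 values of -1.64 (SE 0.32, adjusted p = 0.0219) in normoxia and -1.51 (SE 0.32, adjusted p = 0.0214) in hypoxia, where the Gapdh row alone had not passed (-1.59, adjusted p = 0.153, and -2.24, adjusted p = 0.0596, edgeR). Adding copies changed no other member's call in the 4 comparisons.

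**Figure D5:**
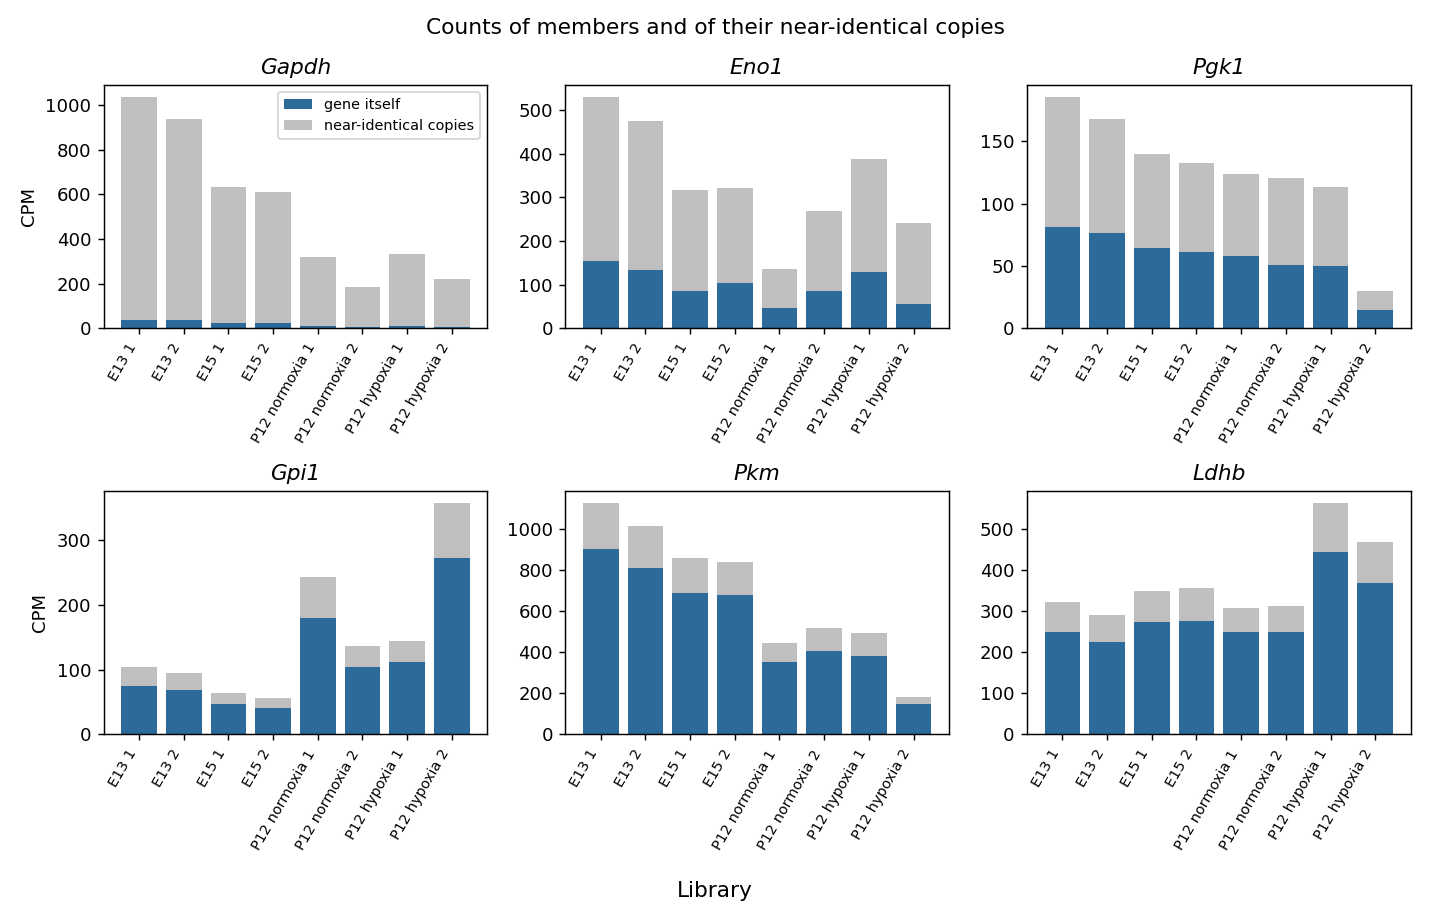
CPM of 6 members (blue) and of their near-identical copies (grey) stacked in each library, on linear axes from 0 that differ between genes. For Gapdh almost all counts lie in copies, and the summed bars stand between 184 and 334 CPM at P12 and between 609 and 1039 CPM in embryos.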

How the data were processed

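The data are RNA-seq counts from 8 libraries, 2 in each of 4 groups set by the titles. The deposited files hold whole-number counts per gene, which the authors made with cutadapt, STAR and Subread on GRCm38, per the submitters' processing notes. Versions, annotation release, strand setting and the treatment of reads with several matches are not given in the sources used here. Rows without a gene name (1980 a file, 0.205% to 0.266% of counts) and 14 rows whose symbols had turned into dates were left out of the members. GENCODE M21 matched 96.8% of the gene rows. Members and gene lists were chosen with earlier results of these data known.

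Counts were fitted with edgeR 4.0.16 (glmQLFit and glmQLFTest, R 4.3.3) on all 8 libraries, with TMM scaling, filterByExpr (minimum count 10, minimum total 15) and Benjamini-Hochberg adjustment over the 19936 genes kept, at a threshold of 0.05. The SE is the log2 fold change divided by the square root of F, and the embryonic mean weighs E13 and E15 equally. CPM are counts per mega-count of TMM-scaled library size, computed here. A floor of 3 counts per library stands for a group with none, and covers counting error only. The script was tested on simulated data, with a recovery required only at a spread set low. That test thus does not show the power at the spread of the P12 libraries. Alternatives were DESeq2 1.42.0, limma-voom 3.58.1 with sample weights, RLE scaling, no filter, a filter of 5 CPM in 2 libraries, a replicate block, only the compared groups, and leaving out each library. Upper-quartile scaling, plain library totals, counts of copies added (blastn 2.17.0+) the coding transcript length and wider isozyme families were added after seeing the data. Every member is named. Those that passed or have an isozyme among the members are given by library or, mostly for embryos, by range. Embryonic CPM of Eno1, Hk2 and Pdha1 are not printed. Of the other pathway genes, up to 4 of smallest p per comparison are named, and Eno3, Aldoc, Pdp2, Pygl and Pdk1 values were chosen after they were seen.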

Additional observations from a re-analysis of the deposited data

How the results depend on the processing

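Calls moved with the settings, among members and over all genes. Members called in hypoxia minus normoxia numbered 1, against 7 with DESeq2 (21.9%, beside 20.0% of all genes) and 0 with limma-voom (0 of all genes), no filter (295 genes), the replicate block (1 gene) or the compared groups alone (0), and 0 to 7 when 1 library was left out (0 to 13.5% of all genes). Between E13 and E15, 0 became 2 with limma-voom (4.69% of all genes) and stayed at 0 in each fit without 1 library. In normoxia minus embryo 4 became 10 with DESeq2 (36.4% of all genes), 11 with only the compared groups (34.4%), 3 with the replicate block (8.55%), and 1 to 11 without 1 library (4.20% to 26.8%). In hypoxia minus embryo 7 became 16 with DESeq2 (45.1%), 3 with limma-voom (2390 genes), 4 with the replicate block (14.4%), 13 with only the compared groups (36.8%), and 2 to 14 without 1 library (7.03% to 30.6%). Among values that had passed, 1 reversed, Ldhb in hypoxia minus embryo, at -0.24 with library totals. Of the 116 values that had not passed, 51 had the other sign in at least 1 alternative, 21 of them in hypoxia minus normoxia. The labels do not say whether libraries of the same replicate number belong together. Deviations of same-numbered libraries correlated over genes at -0.0385 to 0.0083 in 6 pairs of groups, so no shift common to many genes was seen. Such a correlation cannot show that these libraries share no litter or preparation. Why calls were lost with the block was not tested. Pygb passed in all 18 alternatives in both comparisons with embryos. Where 1 library was left out, its group's lone library was assumed to vary like the others.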
